A study of Mus musculus with 62 samples.

Results

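The ventral hippocampus (vHPC) was 1 of 5 brain regions in the study, and its 12 RNA-seq libraries of the 62 in the series were chosen by the tissue label alone. The libraries fall into 4 groups of 3 male C57BL/6J mice aged 8 to 10 weeks: acute saline (1 intraperitoneal injection), acute ethanol (1 injection of 2 g/kg ethanol, given as a 20% solution in saline), chronic saline (10 daily injections) and chronic ethanol (10 daily injections of the same dose). The controls thus carried the same number of injections as the ethanol mice, and every mouse was killed 4 h after the last injection. Each library came from a different mouse, from tissue punched out of slices of a frozen brain. The question was whether the ethanol change depends on exposure history, which is the interaction of paradigm and treatment: the ethanol minus saline difference after 10 injections less that after 1 injection, on the log2 scale. A positive interaction therefore means a change that was more positive after 10 injections. Library totals ran from 11421520 (chronic saline replicate 2) to 16574721 counts (chronic ethanol replicate 5).

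The vHPC is the pole of the hippocampus tied to emotion, stress and reward, and its pyramidal cells send glutamatergic axons to the ventral striatum. Glutamate acts there on ionotropic receptors, which are held in the postsynaptic density by scaffold proteins and signal through calcium, while endocannabinoids made in the postsynaptic cell damp further release. Newly made receptors and channels are folded in the endoplasmic reticulum (ER) by chaperones. When unfolded proteins pile up there, the sensors of the unfolded protein response (UPR) raise the transcription of chaperone genes through a promoter motif called the ER stress response element (ERSE).

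The tissue label was checked against marker genes. Prox1, the transcription factor of dentate granule neurons, had a median of 130 CPM (the count scaled to the library total) in the vHPC libraries, 135 CPM in dorsal hippocampus (dHPC) and 14.2 CPM in ventral striatum (VS). Slc17a7, the vesicular glutamate transporter of hippocampal and cortical neurons, had medians of 1560 CPM in vHPC, 1150 CPM in dHPC and 76.1 CPM in VS. Both genes separate hippocampus from striatum, not its poles. Markers of the ventral pole were mixed: Trhr (medians of 1.85 and 0.465 CPM), Grp (8.18 and 4.84 CPM) and Dcn (9.7 and 5.88 CPM) were higher in vHPC than in dHPC, while Nts (1.51 and 3.25 CPM) and Coch (4.38 and 8.28 CPM) were lower, and the ranges of all 5 overlapped. The lowest vHPC value of Prox1, 39.3 CPM, was above the highest VS value of 22.6 CPM. Markers of neighbouring tissue were uneven between mice. Ttr, the thyroxine carrier made by the choroid plexus, ranged from 3.39 CPM in chronic saline replicate 2 to 2840 CPM in chronic ethanol replicate 5. The 8 thalamic marker genes summed to 914 CPM in acute saline replicate 2 and to between 64.1 and 235 CPM in the other 11 libraries. The 10 markers of striatal projection neurons summed to 962 CPM in acute ethanol replicate 4 and 1290 CPM in chronic ethanol replicate 5, and to at most 379 CPM elsewhere. Acute saline replicate 6 had the lowest dentate granule sum, 163 CPM, where the other libraries lay between 286 and 914 CPM. Counts of called genes are therefore also given without single libraries, and list medians also with marker covariates. In bulk tissue, fewer cells of a type and less RNA per cell cannot be told apart.

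No gene passed a false discovery rate (FDR) of 0.1 for the interaction in edgeR's quasi-likelihood test over 20618 genes, where the smallest adjusted p was 0.289. At an unadjusted p under 0.05 the same test counted 1134 genes with a positive interaction (5.5% of those tested) and 1247 with a negative one (6.05%). DESeq2's Wald test, the tool of the study, called 417 genes at FDR 0.1: 136 positive, or 1.51% of the 9023 genes to which it gave an adjusted p, and 281 negative, or 3.11%. Leaving out acute saline replicate 6, the library low in dentate markers, gave edgeR 434 calls (182 positive and 252 negative) and DESeq2 1284. Leaving out acute ethanol replicate 4 gave 27 and 700 calls, and the other 10 omissions gave edgeR no call. DESeq2's count was 67 without acute ethanol replicate 5, 95 without chronic saline replicate 2, 105 without acute saline replicate 2, 117 without acute ethanol replicate 3 and 161 without acute saline replicate 4. It was 201 without chronic saline replicate 6, 202 without chronic ethanol replicate 5, and between 355 and 479 in the other 3 omissions.

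The genes were chosen by the interaction, so the signs of its parts are given as a description. Of the 136 positive DESeq2 genes, 133 were lower in ethanol than saline after 1 injection and higher after 10, and of the 281 negative genes 273 had the opposite signs. Of all 20618 tested genes, 5481 had the first pattern and 5187 the second. The chronic minus acute saline difference is also a part of the interaction: its median was -0.41 over the positive genes, 0.34 over the negative genes and -0.01 over all tested genes on the log2 scale. An effect of ethanol within one paradigm alone was not called by edgeR in the same fit: no gene passed FDR 0.1 after 1 injection (2521 genes with p under 0.05) or after 10 injections (1861 genes), nor between the saline groups (2372 genes). In what follows, an interaction given with its SE is edgeR's estimate, and one given with a DESeq2 adjusted p alone is DESeq2's. The lists and their members were chosen with earlier results of these data known, so the list shares below are descriptions. From these same libraries the study had reported enrichment for protein folding and the UPR among interaction genes mainly of the first pattern. Among those mainly of the second pattern it reported ionotropic glutamate receptor signalling.

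**Figure D1:**
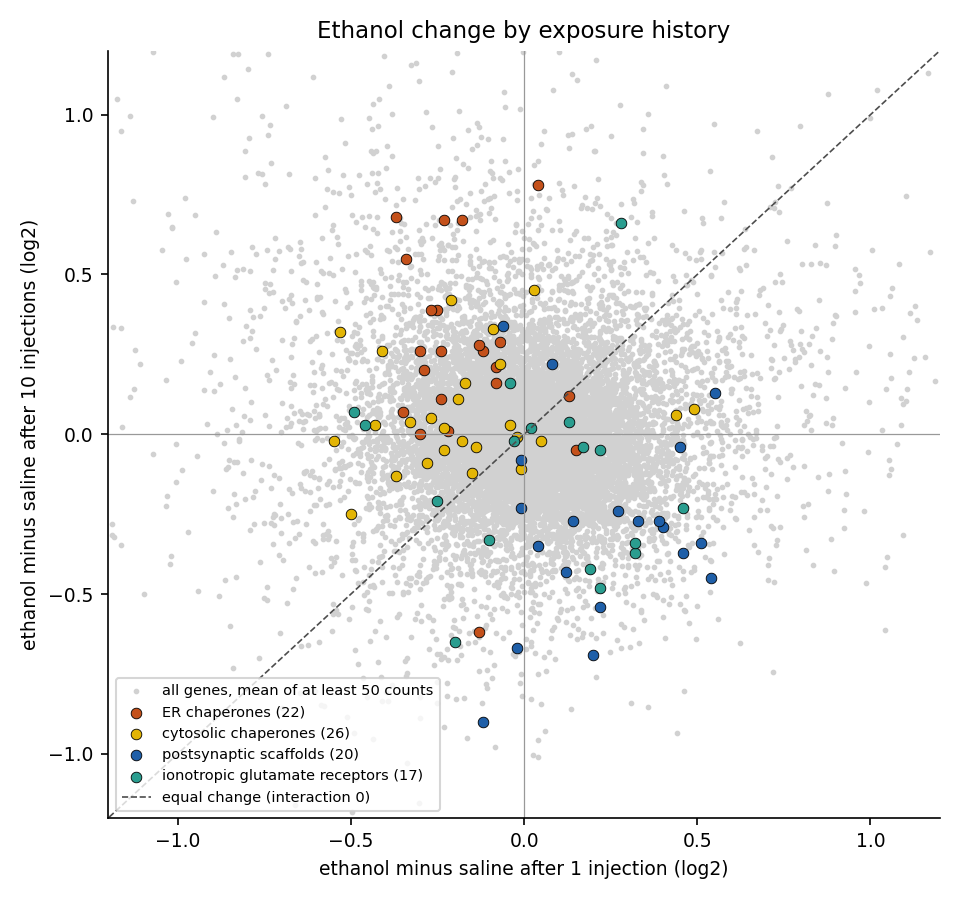
Ethanol minus saline log2 difference after 1 injection (x axis) against that after 10 injections (y axis) in vHPC, for genes with a mean of at least 50 counts (grey; points beyond 1.2 are not drawn) and 4 gene lists (colours). Points above the dashed line have a positive interaction: 19 of 22 ER chaperones and 22 of 26 cytosolic chaperones lay above it, and 18 of 20 postsynaptic scaffold genes below it.

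The ER chaperones, which fold and quality-check secreted and membrane proteins, had the most positive median of the 23 process lists. All 22 listed genes were tested. Their median interaction was 0.41 (all tested genes, 0.01), 19 were positive, and 12 had a positive interaction with p under 0.05, or 54.5% against the 5.5% of all genes. DESeq2 called 9 of them, all positive, where 1.51% of the genes with an adjusted p were positive calls. As a median, the list was 0.22 lower in ethanol after 1 injection and 0.26 higher after 10. The chronic minus acute saline difference of the list had a median of -0.3. The list's mean log2 CPM was 5.74 ± 0.11 in acute saline and 5.57 ± 0.06 in acute ethanol (SD, n = 3 each). It was 5.46 ± 0.04 in chronic saline and 5.71 ± 0.12 in chronic ethanol.

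Hspa5 encodes BiP, the main ER member of the HSP70 family, and is the standard readout of the UPR (chromosome 2, 34661982 to 34667559, GRCm39). It measured 273, 199 and 286 CPM in the acute saline mice and 203, 207 and 175 CPM in the acute ethanol mice. It measured 172, 167 and 162 CPM after 10 saline injections, and 209, 222 and 372 CPM after 10 ethanol injections. Every chronic ethanol value was above every chronic saline value, with 1 library (replicate 6) far above the other 2, while the acute groups overlapped. Its interaction was 1.05 ± 0.27 (SE, n = 3 per group; DESeq2 adjusted p = 0.0195, edgeR adjusted p = 0.289).

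Hsp90b1, the ER member of the HSP90 family (chromosome 10, 86526073 to 86541373), gave 347, 290 and 300 CPM in acute saline and 247, 271 and 242 CPM in acute ethanol. In the chronic groups it gave 241, 255 and 253 CPM with saline and 269, 296 and 333 CPM with ethanol. Neither pair of groups overlapped, and the directions were opposite. The interaction was 0.56 ± 0.14 (SE; DESeq2 adjusted p = 0.0195).

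Protein disulfide isomerases, which form and shuffle disulfide bonds, and the ER J-domain proteins, which drive the HSP70 cycle, gave similar values. By DESeq2, Pdia4 had an interaction of 0.90 (adjusted p = 0.0412), Pdia6 of 0.65 (0.0686) and Pdia3 of 0.51 (0.0827). Dnajc3, an inhibitor of the UPR kinase PERK as well as a co-chaperone, had 0.90 (0.0254), and Dnajb9 had 0.67 (0.0826) by DESeq2. The lectin chaperones Calr and Canx had 0.50 (0.0975) and 0.36 (0.0505). The 3 members with a negative interaction, Ppib, Cdnf and Sil1, had edgeR adjusted p-values from 0.517 to 0.996.

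**Figure D2:**
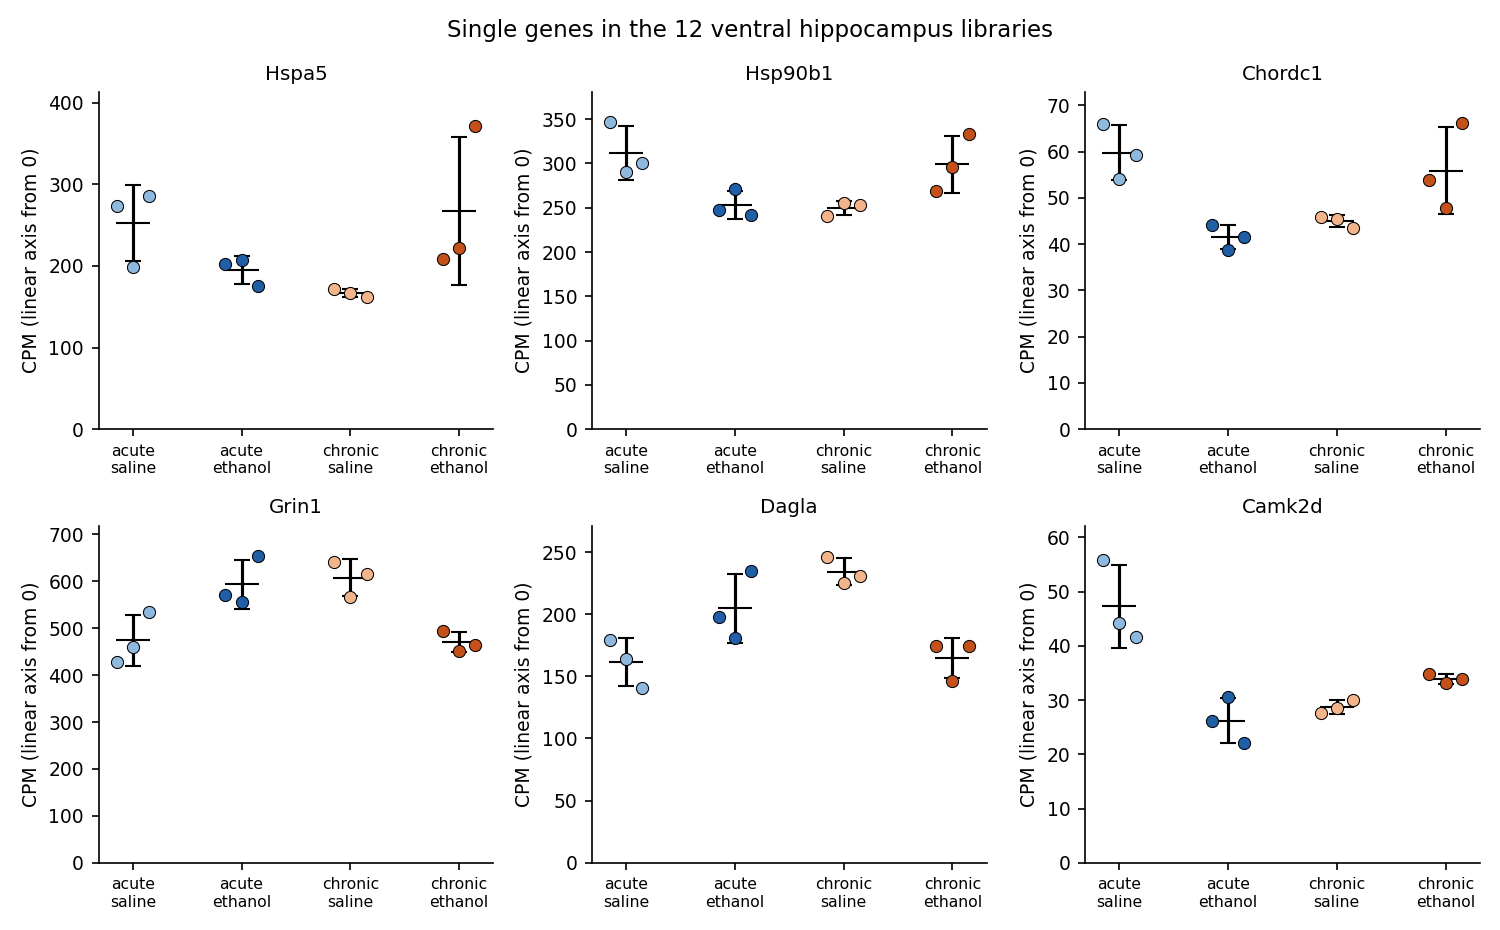
CPM of 6 genes in each of the 12 vHPC libraries (points), with the mean and SD of each group of 3 (lines), on linear axes from 0. Hspa5, Hsp90b1, Chordc1 and Camk2d had their highest group means with acute saline or chronic ethanol, and Grin1 and Dagla had theirs with acute ethanol or chronic saline.

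The promoters of these genes were searched because 12 of the 22 ER chaperones shared a direction at p under 0.05. The motif was the ERSE written exactly, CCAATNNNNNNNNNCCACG, on either strand within the 250 bases before the gene start (RefSeq, GRCm38.p6). Of the 22 ER chaperones 18 had a promoter entry, and 8 of them (44.4%) held the motif, against 35 of all 27025 genes with an entry (0.13%). The 8 were Calr, Canx, Creld2, Dnajc3, Ero1b, Hsp90b1, Hspa5 and Pdia6. Of these, 7 had an interaction p under 0.05, with a median interaction over the 8 of 0.60, and 5 of the 10 without the motif did, with a median of 0.37. These counts are descriptions and the difference was not tested. Since the UPR raises chaperone genes through this motif, its share describes the list and not the ethanol change. Of the 12812 tested genes with an entry, 21 (0.164%) held the motif, and the interactions of those outside the list were not examined. A second UPR motif that was searched, the UPRE (TGACGTGG), was found in 0 of the 18 ER chaperone promoters, against 0.603% of all genes. The heat shock element GAANNTTCNNGAA was found in 1 of 23 cytosolic chaperone promoters, that of Dnajb6 (4.35%, against 0.514% of all genes). The ERSE windows of 4 members called by DESeq2 are shown with the motif in capitals, on the gene's strand. They lie at chr2:34772005-34772063 (Hspa5), chr10:86705618-86705676 (Hsp90b1), chr14:118937807-118937865 (Dnajc3) and chr12:17266471-17266529 (Pdia6), all upstream of the start:
Hspa5: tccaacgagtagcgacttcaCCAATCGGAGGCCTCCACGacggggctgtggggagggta
Hsp90b1: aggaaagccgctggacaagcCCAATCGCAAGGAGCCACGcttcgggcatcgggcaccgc
Dnajc3: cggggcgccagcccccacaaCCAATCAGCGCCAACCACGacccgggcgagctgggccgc
Pdia6: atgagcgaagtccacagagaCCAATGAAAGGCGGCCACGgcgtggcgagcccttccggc

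Of the 15 UPR sensors and transcription factors, 1 was positive and 2 were negative at p under 0.05, and the list median was 0.08. That median was 0.15 with Ttr as a covariate, 0.19 with the GC trend removed and 0.15 with both. It ran from 0.05 to 0.2 with each library left out. Xbp1, the transcription factor spliced by the sensor IRE1, had an interaction of 0.53 in edgeR (adjusted p = 0.374; DESeq2 adjusted p = 0.194). Atf6b, a membrane-bound factor of the ATF6 branch, had -0.48 by DESeq2 (adjusted p = 0.0813). Chac1, a glutathione-degrading enzyme induced through ATF4 and CHOP, had -1.15 (edgeR adjusted p = 0.301; none from DESeq2). With Ttr and GC adjustment Chac1 had -1.26 and was the 1 member at p under 0.05. Atf4 and Ern1, which encodes IRE1, had interactions of 0.08 and 0.07. ER-associated degradation genes, which export misfolded proteins, had a median of 0.14, with 1 of 16 (Derl2) positive at p under 0.05.

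Cytosolic chaperones had a median interaction of 0.25, with 22 of 26 positive. At p under 0.05, 7 were positive, or 26.9% against 5.5% of all genes. DESeq2 called 4, all positive, where 1.51% of the genes with an adjusted p were positive calls. Here the larger ethanol part was the change after 1 injection, a median of -0.19, against 0.03 after 10. The chronic minus acute saline difference of this list had a median of -0.18. Chordc1, a zinc-binding partner of HSP90 (chromosome 9, 18203421 to 18228738), gave 66, 54 and 59.3 CPM in acute saline and 44.1, 38.8 and 41.6 CPM in acute ethanol. In chronic saline it gave 45.8, 45.5 and 43.4 CPM and in chronic ethanol 53.9, 47.7 and 66.1 CPM. The groups overlapped in neither paradigm and crossed over. Its interaction was 0.84 ± 0.17 (SE; DESeq2 adjusted p = 0.00676). Dnajb4, an HSP40 co-chaperone, had 0.63 by DESeq2 (adjusted p = 0.0145), Hspa4l, an HSP110-type exchange factor, 0.54 (0.0968), and Hsp90aa1, the stress-inducible HSP90, 0.46 (0.0999). The list members Hspa1a and Hspa1b were not among the calls: they had interactions of 0.24 and 0.25, with edgeR adjusted p-values of 0.841 and 0.853. Chaperonin and prefoldin subunits had a median of 0.15 (4 of 14 positive at p under 0.05, with Vbp1 the 1 DESeq2 call), which was 0.08 with the GC trend removed and 0.15 with Ttr and GC adjustment, where none of 14 had p under 0.05. Vbp1 went from 0.57 to 0.25 under both adjustments in edgeR. Mitochondrial chaperones had -0.05 (4 of 10 positive, 2 of them at p under 0.05, Hspe1 with the smallest p) and 0.10 with Ttr and GC adjustment.

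Postsynaptic scaffold genes had the most negative median of the 23 lists, -0.58. Of 20 genes, 18 were negative and 14 were negative at p under 0.05, or 70% against 6.05% of all genes. DESeq2 called 9, all negative, where 3.11% of the genes with an adjusted p were negative calls. The list's median change was 0.21 after 1 ethanol injection and -0.28 after 10. Its chronic minus acute saline difference had a median of 0.26. Dlg4, which encodes PSD-95, the central scaffold of the density, gave 566, 574 and 736 CPM in acute saline, 830, 703 and 829 CPM in acute ethanol, 861, 743 and 785 CPM in chronic saline and 665, 614 and 704 CPM in chronic ethanol. The chronic groups did not overlap and the acute groups did. Its interaction was -0.60 ± 0.16 (SE; DESeq2 adjusted p = 0.0336). Iqsec2, an exchange factor for the GTPase ARF6, had -0.85 (adjusted p = 0.00894) and Shank3, which links receptors to actin, -0.65 (0.0336) by DESeq2. Shank3 was about level after 1 injection, at -0.02, and differed by -0.67 after 10. Homer1 and Dlg2 had interactions of 0.15 and -0.07, with edgeR adjusted p-values of 0.789 and 0.885.

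Glutamate receptor genes were divided. Of 17 ionotropic subunits, 5 were negative at p under 0.05, or 29.4% against 6.05% of all genes. At the same p, 1 (Gria4) was positive, or 5.88% against 5.5% of all genes. The median was -0.21. DESeq2 called 4, all negative, where 3.11% of the genes with an adjusted p were negative calls. Gria4 went from 0.56 to -0.10 with Ttr and GC adjustment. Grin1, the obligatory NMDA receptor subunit (chromosome 2, 25181193 to 25209107), gave 428, 461 and 534 CPM in acute saline and 571, 556 and 654 CPM in acute ethanol. It gave 642, 566 and 616 CPM in chronic saline and 495, 452 and 465 CPM in chronic ethanol. No ethanol group overlapped its saline group, and the order reversed between paradigms. The interaction was -0.69 ± 0.14 (SE; DESeq2 adjusted p = 0.00471). The other 3 called subunits were the kainate receptor Grik5 (-0.69, adjusted p = 0.029), the NMDA receptor subunit Grin2b (-0.60, 0.0797) and the AMPA receptor subunit Gria1 (-0.69, 0.0842). Of the AMPA receptor auxiliary subunits, 6 of 18 (33.3%) were negative at p under 0.05, with Cacng8, the hippocampal TARP, at -0.94 (DESeq2 adjusted p = 0.0195). Metabotropic receptors had a median of 0.16, with 1 of 7 (14.3%) in each direction at p under 0.05. With Ttr and GC adjustment the median was -0.10, with none of 7. It was -0.03 without acute saline replicate 2.

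Voltage-gated calcium channels were negative in 8 of 8 genes, 5 of them at p under 0.05 (6.05% of all genes). DESeq2 called 3, where 3.11% of the genes with an adjusted p were negative calls. They included Cacna1h, a T-type channel (-0.92, adjusted p = 0.0446), and Cacna1e, the R-type channel (-0.55, 0.0574). Cacna1a, the P/Q-type channel of nerve terminals, was the other (-0.50, 0.0871). In the endocannabinoid system the median was -0.31 and 7 of 8 genes were negative. DESeq2 called 4, all negative, against 3.11% of all genes with an adjusted p. Dagla, which makes the main hippocampal endocannabinoid 2-arachidonoylglycerol (chromosome 19, 10222629 to 10282241), gave 179, 164 and 141 CPM in acute saline and 198, 181 and 235 CPM in acute ethanol. It gave 246, 225 and 231 CPM in chronic saline and 174, 146 and 174 CPM in chronic ethanol. Again neither pair of groups overlapped. Its interaction was -0.85 ± 0.16 (SE; DESeq2 adjusted p = 0.00471). The degrading enzymes Mgll, Faah and Abhd12 were the other calls, at -0.48 (0.037), -0.71 (0.0576) and -0.32 (0.0758) by DESeq2. The receptor gene Cnr1 had -0.30 (edgeR adjusted p = 0.712).

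**Figure D3:**
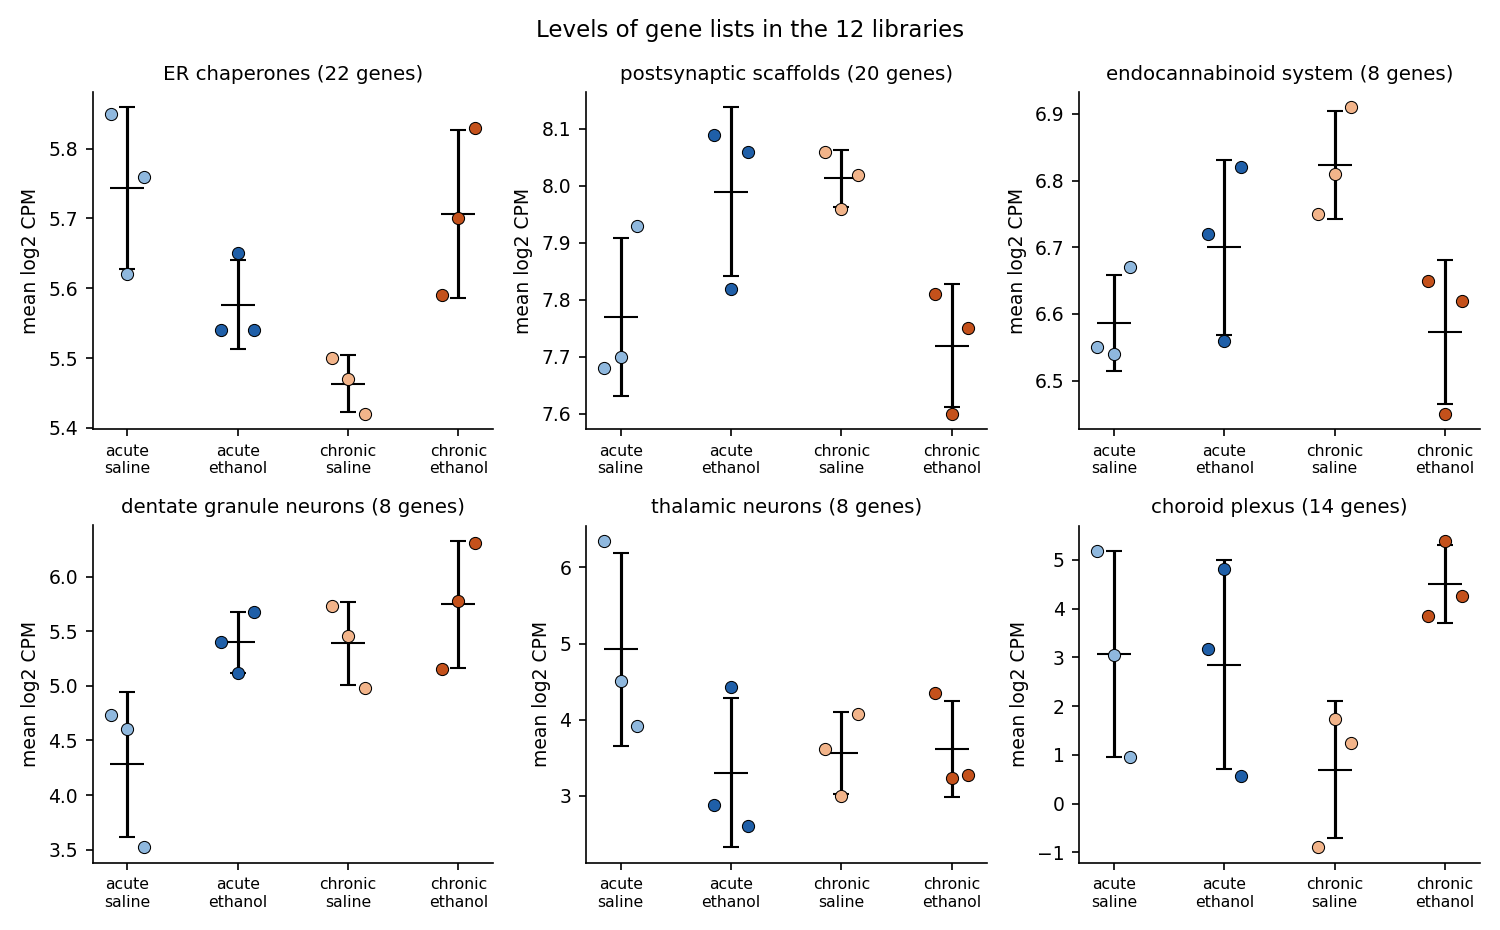
Mean log2 CPM of the tested members of 6 gene lists in each vHPC library (points), with the mean and SD of each group of 3 (lines); axes do not start at 0. ER chaperones were highest in acute saline and chronic ethanol and postsynaptic scaffolds in acute ethanol and chronic saline, while the dentate list was lowest in acute saline and the choroid plexus list lowest in chronic saline.

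Over all genes, 5.5% were positive and 6.05% negative at p under 0.05, and 3.11% of those with an adjusted p were negative DESeq2 calls. Spine actin regulators had a median of -0.28, with 10 of 28 negative (35.7%) and 1 positive (3.57%) at p under 0.05. DESeq2 called 5, all negative, with the GIT/PIX scaffold Git1 at -0.78 (adjusted p = 0.0254) and the spine exchange factor Kalrn at -0.69 (0.0281). Presynaptic release genes had -0.19, with 8 of 29 negative (27.6%) and 2 positive (6.9%) at p under 0.05. Synaptic adhesion genes had -0.20, with 9 of 32 negative (28.1%) and 2 positive (6.25%) at that p. Sodium and potassium channels had -0.23, with 4 of 26 negative (15.4%) at that p. With Ttr as a covariate these 3 medians were -0.09, 0.00 and -0.09, and with the choroid plexus list as a covariate -0.03, 0.01 and -0.06. GABA-A receptor subunits had a median of 0.17, and -0.12 with the GC trend removed. At p under 0.05, 1 of 13 (7.69%) lay in each direction, near the shares of all genes. Gabra3, the α3 subunit, had 0.89 by DESeq2 (adjusted p = 0.0829). Opioid genes had a median of 0.04, with none of 7 at p under 0.05, and -0.30 with Ttr as a covariate. Their median was -0.31 without chronic ethanol replicate 5 and 0.54 without acute ethanol replicate 4. Activity-induced genes had a median of -0.21 (11 of 18 negative, 3 of them, or 16.7%, at p under 0.05), with the zinc-finger factor Egr4 at -1.06 (DESeq2 adjusted p = 0.0694). Their median was -0.04 without chronic saline replicate 3, -0.42 without chronic saline replicate 6 and -0.51 with the dentate list as a covariate. Housekeeping lists lay near 0, with counts at p under 0.05 given here. Oxidative phosphorylation had 0.08 (3 of 41 positive, 7.32%) and proteasome 0.05 (3 of 31 positive, 9.68%). Ribosomal proteins had 0.07 (2 of 49 positive, 4.08%, and 1 negative, 2.04%).

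Glucocorticoid targets, which report stress hormone, had a negative interaction in 3 of 13 genes at p under 0.05, or 23.1% against 6.05% of all genes. In 1 gene it was positive at that p, or 7.69% against 5.5% of all genes, and DESeq2 made no call. Fkbp5, the receptor co-chaperone that such hormones induce, gave 61.8, 66.7 and 89.7 CPM in acute saline, 97.8, 110 and 126 CPM in acute ethanol, 82.8, 73.9 and 83.4 CPM in chronic saline and 86, 73.1 and 86.3 CPM in chronic ethanol. The acute groups did not overlap and the chronic groups did. Its interaction was -0.58 ± 0.19 (SE; edgeR adjusted p = 0.319, DESeq2 adjusted p = 0.111), and -0.21 with Ttr and GC adjustment, where none of the 13 genes had p under 0.05.

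Outside the lists, the smallest edgeR p-values on the positive side belonged to Camk2d and Gpc3. Camk2d encodes the δ subunit of the calcium and calmodulin kinase (chromosome 3, 126389951 to 126638562). It gave 55.9, 44.2 and 41.7 CPM in acute saline, 26.1, 30.5 and 22.1 CPM in acute ethanol, 27.6, 28.6 and 30.1 CPM in chronic saline and 34.8, 33.1 and 33.8 CPM in chronic ethanol. No ethanol value lay within the range of its saline group. The interaction was 1.09 ± 0.19 (SE; DESeq2 adjusted p = 0.00188). Gpc3, a heparan sulfate proteoglycan, had 1.94 and Arhgap18, a GTPase-activating protein, 1.99, at means under 10 CPM in every group and without an adjusted p from DESeq2. On the negative side stood Dgkz, a diacylglycerol kinase of the synapse, at -1.03 (DESeq2 adjusted p = 0.00303), Psd, an ARF6 exchange factor, at -0.90 (0.0083), Wipf3, an actin regulator, at -1.18 (0.00633), and Ddn, dendrin of the postsynaptic density, at -1.21 (0.00633). The rest of the 12 smallest p-values on the positive side were those of Chordc1, Uba6, Nap1l5, Tmem132c, Tmem255a, Hsdl2, Rpl22l1, Elavl4 and Dpp10, with edgeR interactions from 0.58 to 2.13. On the negative side they were those of Dagla, Grin1, Iqsec2, Lmo7, Zfp46, Agap2, Gse1 and Sipa1l3, from -0.98 to -0.69. With Ttr and GC adjustment in edgeR, Dgkz had -0.53, Psd -0.43, Wipf3 -0.60, Ddn -0.56, Camk2d 0.68, Gpc3 1.95 and Arhgap18 1.49, and DESeq2 called none of these 7 under both adjustments. Ddn gave 1080 to 1490 CPM in acute saline and 1730 to 2730 CPM in acute ethanol, without overlap, but 1760 to 2600 and 1560 to 2020 CPM in the chronic groups, which overlapped.

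Among the 281 negative DESeq2 genes, 21 were γ-protocadherins (Pcdhg genes), neuronal adhesion molecules whose transcripts share their last exons. Their interactions by DESeq2 ran only from -0.36 to -0.29 and their median pairwise correlation over the 12 libraries was 0.995. The counting assigned a read to every gene it overlapped, so these 21 calls carry the same reads and are not separate observations.

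The study labels Sulf1 and Unc13c in a plot of these same libraries and names Cacna1e, Sh3bp5, Calb1 and Gfra1 in its text, so their values are a description. Sulf1, a sulfatase that edits heparan sulfate, gave 40.3, 17.3 and 11.4 CPM in acute saline, 12.5, 32.5 and 4.35 CPM in acute ethanol, 2.85, 7.57 and 4.16 CPM in chronic saline and 20.1, 69.1 and 23 CPM in chronic ethanol. Its interaction was 3.43 by DESeq2 (adjusted p = 0.0842). Unc13c, a synaptic vesicle priming factor, had 2.79 (0.0975), with 115 CPM in acute saline replicate 2, the library richest in thalamic markers, and between 9.95 and 47.5 CPM in the others. With Ttr as a covariate the edgeR interactions of Sulf1 and Unc13c were 1.31 and 0.95. Sh3bp5, a RAB11 exchange factor, had -0.71 by DESeq2 (0.0898), and -0.32 in edgeR with Ttr as a covariate. Calb1 and Gfra1, a calcium buffer and the GDNF receptor, had similar ethanol differences in both paradigms, 0.73 and 0.73 for Calb1 and 0.51 and 0.58 for Gfra1, and interactions of 0.00 and 0.06.

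Choroid plexus content moved with the interaction, and its part in the list results was not tested beyond the adjustment given next. All 14 choroid plexus markers were positive, 13 of them at p under 0.05 in edgeR with none called by DESeq2, and their median interaction was 4.19. Their sum was 2540, 510 and 112 CPM in acute saline, 598, 2090 and 84.9 CPM in acute ethanol, 29.6, 220 and 129 CPM in chronic saline and 952, 3350 and 1450 CPM in chronic ethanol. Ttr was the most abundant gene of the list, though it gave only 3.39 of the 29.6 CPM in chronic saline replicate 2, and the defining marker Aqp1 was at 0 CPM in chronic saline replicate 2. The chronic ethanol libraries were all above the chronic saline libraries, and the acute groups overlapped widely. The 14 myelin genes also had positive interactions (median 1.02, 14 of 14 positive, 3 or 21.4% at p under 0.05, against 5.5% of all genes). So did the 8 thalamic (1.94, 8 of 8, 4 or 50%) and the 8 ependymal genes (1.66, 8 of 8, 2 or 25%). Median ethanol changes after 1 and 10 injections were -0.17 and 4.08 for choroid plexus, -0.35 and 0.69 for myelin and -0.31 and 1.23 for ependymal genes. For the thalamic genes they were -1.77 and 0.05, so there the difference lay in the acute groups. Without acute saline replicate 2 the median interaction was 0.81 for the thalamic and 2.43 for the choroid plexus list. As a mean, the 6 listed markers of ventral pole neurons also went with the ER chaperones, with 5 positive interactions and 1 negative. The most abundant of the 6, Lypd1, was higher with ethanol after 1 injection, unlike the chaperones. It gave 54.2 to 65.6 CPM in acute saline and at least 77.4 CPM in acute ethanol. In chronic saline it gave 71.2 to 75.4 CPM and in chronic ethanol 74.1 to 138 CPM. Whether the 6 markers report the position of the punch was not tested. Their mean log2 CPM was 4.08 ± 0.23 in acute saline, 3.62 ± 0.47 in acute ethanol, 2.92 ± 0.26 in chronic saline and 4.02 ± 0.18 in chronic ethanol (SD, n = 3 each). Their median interaction was 1.66, with 5 of 6 positive at p under 0.05 and Nr2f2 called by DESeq2 (1.19, adjusted p = 0.0336). With Ttr and GC adjustment it was 0.86, with 3 of 6 (50%) positive at p under 0.05, and the part of punch position in the chaperone values was not tested. CA pyramidal markers went the other way (-0.82, 8 of 9 negative, 1 at p under 0.05). With Ttr and GC adjustment their median was -0.15, with 1 of 9 positive at p under 0.05. Under the same adjustment the myelin, thalamic and ependymal medians were -0.16, 0.52 and -0.01.

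GC content moved with it as well. The median GC content was 42.9% for the positive and 55.5% for the negative DESeq2 genes, against 49.3% of all tested. The fitted level at 60% GC minus that at 40% GC averaged -0.11 ± 0.16 in acute saline and 0.12 ± 0.03 in acute ethanol (SD, n = 3 each). It averaged 0.08 ± 0.13 in chronic saline and -0.09 ± 0.09 in chronic ethanol, so the trend crossed over between paradigms as the genes did.

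**Figure D4:**
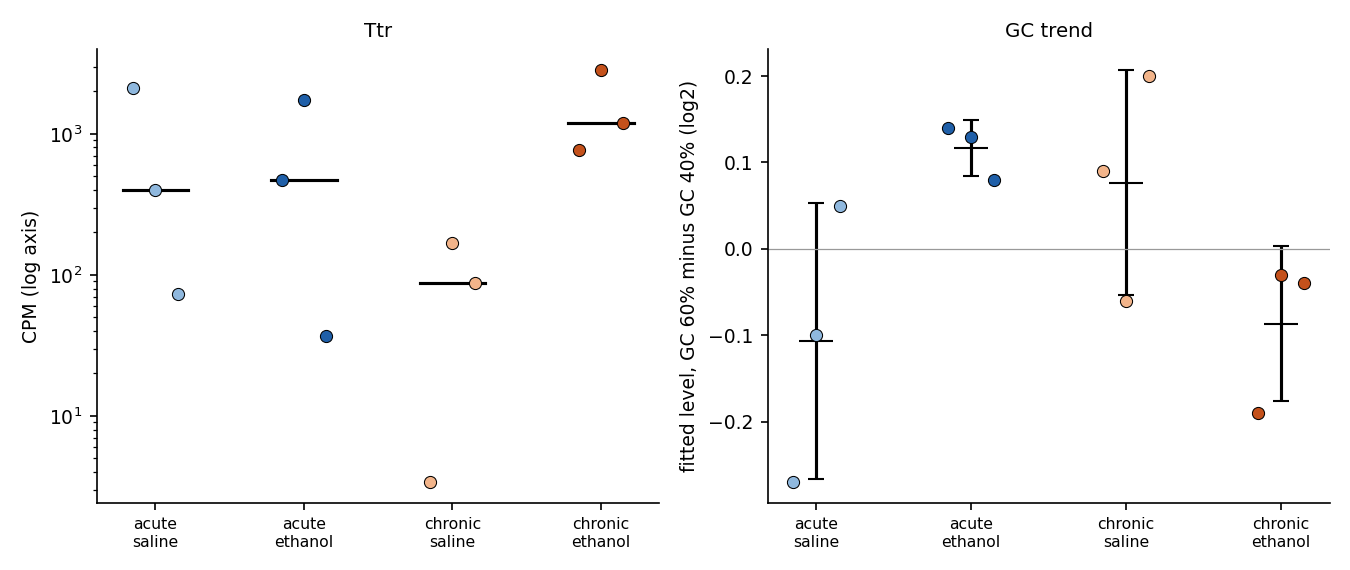
Left, CPM of the choroid plexus gene Ttr in each vHPC library on a log axis, with group medians. Right, each library's fitted log2 level at 60% GC minus that at 40% GC, with the mean and SD of each group of 3. Ttr was higher in every chronic ethanol than in every chronic saline library, and the GC trend was positive in all 3 acute ethanol and negative in all 3 chronic ethanol libraries.

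With Ttr as a covariate, edgeR counted 824 genes with p under 0.05 in place of 2381, with the GC trend removed 1962, and with both 645. Under both adjustments, 373 genes were positive (1.81%) and 272 negative (1.32%), and none passed FDR 0.1. DESeq2's 417 calls became 4 with Ttr as a covariate, 94 with the GC trend removed (82 of them among the 417) and 4 with both. All 417 kept their sign under each of the 3 settings, but the sizes shrank. The median of the 136 positive genes went from 0.67 to 0.49 with Ttr and 0.39 with both, and that of the 281 negative genes from -0.59 to -0.38 and -0.27. Their median standard errors stayed close, at 0.21 and 0.18 without adjustment and 0.23 and 0.18 with both. The covariate itself differed between groups, so an ethanol change in the same genes and the choroid plexus content cannot be told apart by it. The 4 genes called with both adjustments were Amy2a2, Amy2a3, Amy2a4 and Amy2a5, near-identical pancreatic amylase genes that shared their reads and lay at or below 1.52 CPM in each library. None of the 4 was among the 417.

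The lists separated under adjustment. The ER chaperone median stayed at 0.41 with Ttr and 0.43 with the GC trend removed, and was 0.34 with both, where 7 of 22 members were positive at p under 0.05, or 31.8% against 1.81% of all genes. Those 7 had adjusted interactions of 0.97 (Hspa5), 0.71 (Pdia6), 0.58 (Calr), 0.55 (Dnajc3), 0.52 (Dnajb9), 1.02 (Creld2) and 0.46 (Dnajb11). Hsp90b1 was not among the 7: it went from 0.56 to 0.33 in edgeR with both (unadjusted p = 0.0587). DESeq2 did not call Hsp90b1 with the GC trend alone removed (adjusted p = 0.13). Cytosolic chaperones stayed at 0.24, with 3 of 26 positive at p under 0.05, or 11.5% against 1.81% of all genes. The 3 were Chordc1 at 0.63, Dnajb4 at 0.57 and Fkbp4 at 0.43. Housekeeping lists also lay above that share with both adjustments. Ribosomal proteins had 4 of 49 positive (8.16%), the proteasome 2 of 31 (6.45%) and oxidative phosphorylation 1 of 41 (2.44%). Their medians were 0.07, 0.09 and 0.14. The postsynaptic scaffolds went from -0.58 to -0.28 and kept 3 of 20 negative members at p under 0.05 (Sipa1l1, Dlg4 and Dlgap2), or 15% against 1.32%. Ionotropic receptors went from -0.21 to -0.11 and kept Grin1 alone, at -0.31, AMPA receptor auxiliary subunits from -0.40 to -0.19 with none of 18, calcium channels from -0.47 to -0.25 with none of 8, and spine actin regulators from -0.28 to -0.07 with 1 of 28 (Kalrn). In the endocannabinoid system the median went from -0.31 to -0.21, and Dagla at -0.60 and Abhd12 at -0.35 were left. None of these genes passed FDR 0.1 in edgeR under any of these adjustments, or in DESeq2 with Ttr as a covariate. With the GC trend alone removed, DESeq2 still called Hspa5, Dnajb4, Dlg4 and Dagla (adjusted p = 0.0759 each), Grin1 (0.071), and Dnajc3, Dlgap2, Sipa1l1, Kalrn and Abhd12.

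**Figure D5:**
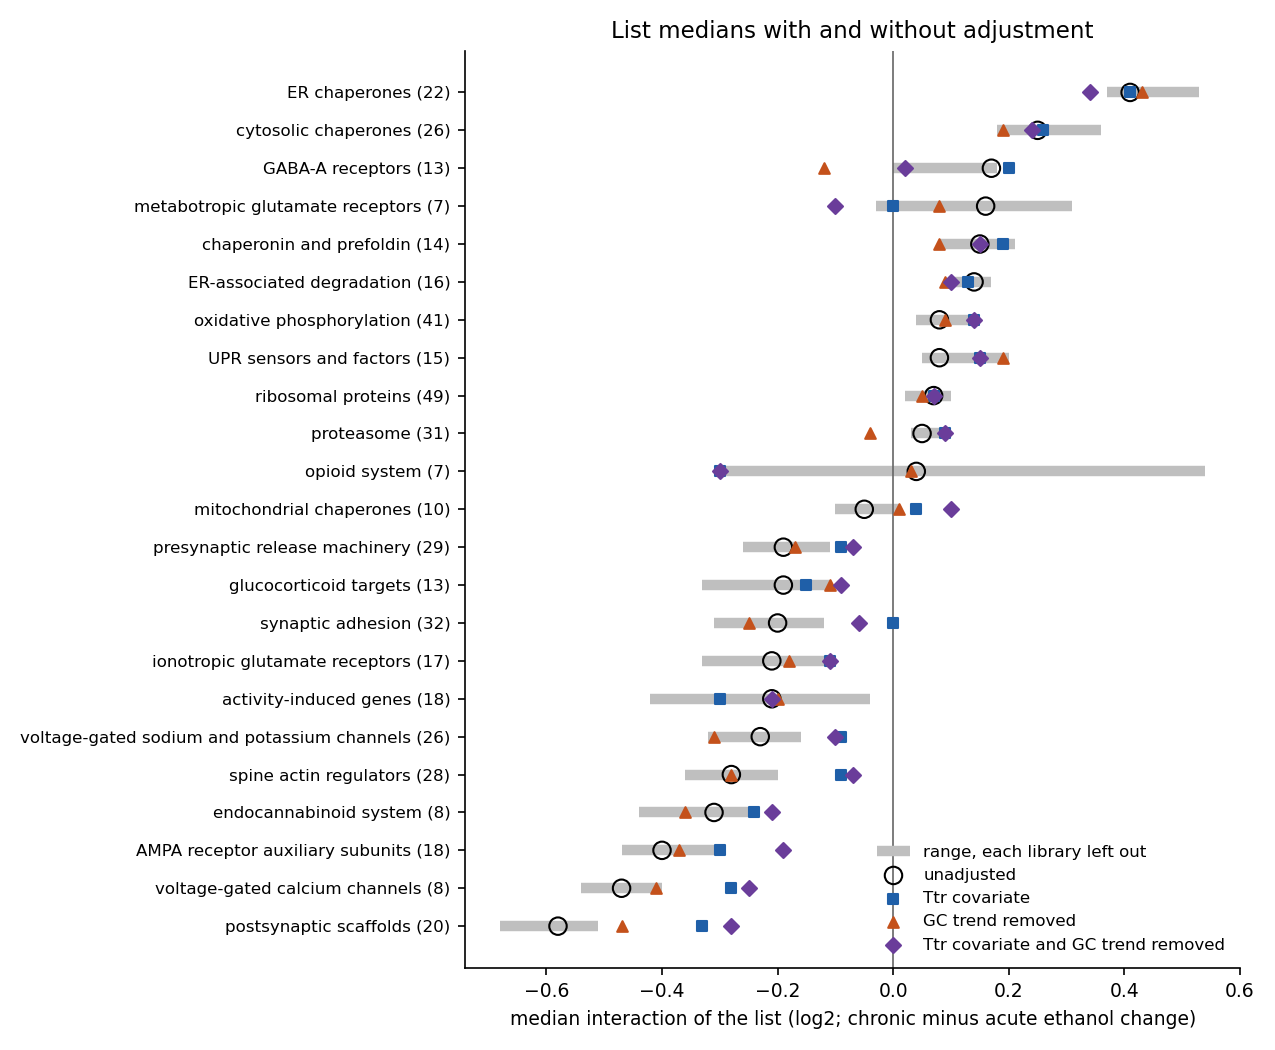
Median interaction (log2) of the 23 process lists in vHPC, with the number of tested genes in parentheses, under 4 settings (symbols) and the range when each library was left out in turn (grey bars). ER chaperones stayed between 0.34 and 0.43 in the 4 settings, while postsynaptic scaffolds moved from -0.58 to -0.28.

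Whether the interaction differed from that in other regions was tested as a difference of interactions with the mouse as a random block (limma voom). Between vHPC and dHPC (12 and 13 libraries) 1454 of 26871 genes were positive (5.41%) and 1645 negative (6.12%) at p under 0.05, and 1 gene, Gsg1, passed FDR 0.1. Between vHPC and VS (12 libraries) 1191 of 21797 were positive (5.46%) and 1307 negative (6%), and none passed, with a smallest adjusted p of 0.288. The dHPC libraries were made with another kit and sequencer, and the VS libraries with those of vHPC. The 22 ER chaperones had a median difference of 0.34 from dHPC (6 positive at p under 0.05) and 0.44 from VS (7 positive), since their medians there were 0.02 and -0.03. The 20 scaffolds had -0.62 from dHPC and -0.77 from VS, with 12 negative at p under 0.05 in each case and medians of 0.02 and 0.21 in those regions. Grin1 differed by -0.60 ± 0.16 from dHPC (SE; limma adjusted p = 0.195) and by -0.73 ± 0.21 from VS (0.288), and Dagla by -0.86 ± 0.19 (0.19) and -0.85 ± 0.24 (0.288). Hspa5 differed by 0.84 ± 0.53 and 0.78 ± 0.44 (0.549 and 0.508). Both comparisons use the same 12 vHPC libraries, so they are not independent. The choroid plexus list differed in the same way, by medians of 5.82 from dHPC and 6.01 from VS, and its part in these differences was not tested.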

How the data were processed

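RNA was poly(A)-selected, and the vHPC libraries were made with a directional kit. Per the submitters' processing notes and the study's methods, the authors trimmed reads (cutadapt 5.0), aligned them to GRCm39 (STAR 2.7.10a) and deposited raw gene counts (featureCounts 2.0.6), in which multimapping and overlapping reads count for every gene and strand is used. A gene was tested where 2 or more libraries of any group held 5 or more counts (20618 genes). The interaction was fitted over the 12 libraries with edgeR 4.0.16 (TMM, quasi-likelihood, prior count 0.125), with DESeq2 1.42.0 as the alternative, both with Benjamini-Hochberg adjustment, and differences between regions with limma 3.58.1. GC trends were removed through offsets from splines with 4 degrees of freedom, using the longest transcript of each gene. Scripts were tested on simulated data. Members and lists were chosen with earlier results of these data known. Genes named are list members past FDR 0.1 in edgeR (0 genes), the 12 smallest p-values in each direction (mean of at least 50 counts, excluding predicted genes), the member of each list with the smallest p, and 7 genes tied to the study's account of the interaction or of both paradigms in vHPC (Sulf1, Unc13c, Calb1, Gfra1, Cacna1e, Sh3bp5 and, as the choroid plexus marker, Ttr); other list members named were chosen after their values were seen. The alternatives tried were other normalisation, filters, covariates, dispersion and libraries left out. The deposited transcript counts were not used. Each library is a different mouse; totals ran from 11421520 to 16574721 counts. The 6 older Atp5 symbols in the list of oxidative phosphorylation genes were not matched.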

Additional observations from a re-analysis of the deposited data

Results flagged for a closer look

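Gsg1, a germ-cell-associated gene, was the 1 gene whose interaction differed between vHPC and dHPC, with a difference of -5.94 ± 0.90 on the log2 scale (SE; limma voom adjusted p = 0.0334). It lay at 0.421 CPM or below in all 12 vHPC libraries: at 0 CPM in the 3 acute saline libraries, 0.266 to 0.421 CPM in acute ethanol, 0.162 to 0.179 CPM in chronic saline and 0 to 0.0704 CPM in chronic ethanol. The value rests on a few reads per library, and edgeR called no gene in the same comparison (smallest adjusted p 0.182). No outlier test was made within groups, since each group held 3 mice.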

How the results depend on the processing

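edgeR's count of 0 interaction genes was 868 with no filter on low counts, 417 by DESeq2 and 4 by DESeq2 with Ttr and GC adjustment, and 0 to 434 with each library left out; the cause was not tested. Its 2381 genes with p under 0.05 became 824 with Ttr, 912 with the choroid plexus list, 1176 with the thalamic list and 645 with Ttr and GC together. The 417 DESeq2 calls became 4 with Ttr, 6 with the choroid plexus list, 4 with the thalamic list, 94 with the GC trend removed and 702 with the dentate list, and 67 to 1284 with each library left out. With a replicate block, DESeq2 called 86 and edgeR 0 genes (1796 with p under 0.05; 1255 with the replicate block and GC trend removed). Replicate numbers mark different mice: 3 of 9 same-numbered pairs had deviations correlated above 0.1, and their median correlation was -0.07. The ER chaperone median was 0.51 with the dentate covariate and 0.37 to 0.53 over omissions. The cytosolic chaperone median was 0.11 under replicate block with GC trend removed. The ionotropic receptor median was -0.11 with Ttr (alone, with GC, or in DESeq2 with both), -0.10 with the choroid plexus list, and -0.33 to -0.11 over omissions. The scaffold median was -0.33 with Ttr, -0.29 with the choroid plexus list, -0.41 with GC and length removed, -0.28 with Ttr and GC in either tool, and -0.45 under replicate block with GC trend removed. The 1 gene called between vHPC and dHPC became 0 in edgeR and 0 to 484 over omissions of vHPC libraries (484 without acute saline replicate 6, 182 without acute ethanol replicate 4). Against VS the range was 0 to 390, with 390 without acute saline replicate 6. Omissions kept the mouse correlation of the full fit. Of the 50 genes chosen by the rule on named genes, 47 kept their sign in every setting. Of other list members named, Gria4, Dlg2, Homer1 and Aqp1 changed sign with Ttr, with the GC trend removed or with both. The interaction of Calb1 was -0.25 with the GC trend removed, -0.26 with GC and length removed, -0.35 under replicate block with GC trend removed and -0.22 to 0.22 over omissions. The interaction of Gfra1 was -0.079 with Ttr, -0.18 with the choroid plexus list, -0.042 with Ttr and GC, -0.04 in DESeq2 with both, -0.032 with the thalamic list and -0.05 to 0.23 over omissions. The interaction of Ttr was -0.0021, -0.11, -0.02 and -0.018 under the Ttr, choroid plexus, Ttr with GC, and DESeq2 with both settings. The number of mice, 3 a group, limits the precision of every value.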

Other observations

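Among the other marker lists, the 8 dentate granule genes had a median interaction of -0.64 in edgeR, with 2 negative at p under 0.05, and their ethanol minus saline median was 1.04 after 1 injection and 0.45 after 10. Striatal projection neuron genes had 0.99 without adjustment and -1.16 with Ttr as a covariate, with none of 10 at p under 0.05 without it. Their median was -0.83 without chronic ethanol replicate 5 and 2.56 without acute ethanol replicate 4. Neocortical projection neuron genes had 0.45 (1 of 8 positive at p under 0.05) and fibroblast genes 0.51 (2 of 9 positive), which was -0.13 without acute saline replicate 4. Medians were -0.16 for microglia, -0.20 for astrocytes, -0.17 for endothelial cells, -0.23 for mural cells and -0.03 for interneurons.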
